A study of Rattus norvegicus with 32 samples.

Results

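The 10 genes described here build and anchor contractile actin cables or, in the case of Srf, switch such genes on, and were measured in C6 cells, an established rat glioma line. The 10 genes were chosen by name, with earlier results of these data known. Their probes were the transcript probes whose gene name was Srf, Zyx, Vcl, Actn1, Actn4, Acta2, Tagln, Myl9, Tpm1 or Cnn1. No measured value entered this match. All 10 were on the array, with 13 of its 30367 probes, among 26583 gene names. Confluent cultures received no treatment (Control), 100 nM angiotensin II (Ang II), or 100 nM Ang II after 30 min with 10 µM Losartan, an antagonist of the AT1 receptor (Ang II+Los), or with 10 µM PD123319, an antagonist of the AT2 receptor (Ang II+PD123319). RNA was taken at 3 h or 6 h, which gave 8 groups of 4 single-colour arrays and 32 arrays in all. No group received an antagonist without Ang II, and all groups were cells of 1 line grown in serum-containing medium. The replicate number was the slide, and each treatment sat at the same position of every slide, so position and treatment cannot be told apart. Nothing in the sources used here says that replicates were separate cultures, so p-values measure the spread between these arrays, which may be technical.

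Serum response factor, the product of Srf, binds the CArG box, a short A/T-rich element between a CC and a GG, in the promoters of many cytoskeletal genes. Its myocardin-related coactivators are held in the cytoplasm by monomeric actin and are freed when actin polymerises. The state of the cytoskeleton thus feeds back on its own genes. In smooth muscle cells, where Ang II is a known contractile and growth stimulus, these genes mark the contractile state. In cultured glial tumour cells the same proteins build stress fibres and the focal adhesions that tie them to the matrix.

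Tagln and Tpm1 were higher with Ang II at 3 h, by 1.31-fold and 1.28-fold, and Srf was higher by 1.50-fold on average but not in every pair. Actn1 and Vcl were higher at 6 h, by 1.31-fold and 1.26-fold. The signal of Zyx was lower at 3 h, at 0.735 of Control, while at 6 h its 2 probes moved in opposite directions. None of these differences passed a Benjamini-Hochberg adjusted p of 0.05 over all genes. The level of 4 contractile genes differed between slides, in Tagln, Myl9 and Tpm1 by far more than between treatments.

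Sequences are shown for Srf, whose promoter holds the element that its own product binds, and for Zyx, whose probes gave different results. RefSeq promoters (GRCr8, 250 bases before to 50 bases after the start) were matched by symbol for 7 of the 10 genes, Zyx with 2 starts. Tagln, Myl9 and Actn4 had no entry. The CArG box, written as CC, then 6 bases that are A or T, then GG, is the same pattern on both strands. It stood in 1 of the 8 promoter windows, that of Srf itself, which held 2 copies. Only this exact pattern was searched, so elements that differ from it by a base or lie outside the window were not counted. Of all 33469 rat promoter windows of this length, 548 (1.64%) held at least 1 box and 7 (0.021%) held 2 or more. The 100 bases before the Srf start (chr9:21923976-21924075, GRCr8, plus strand) are printed with both boxes in capitals, at -81 to -72 and -61 to -52 from the start.
Srf promoter: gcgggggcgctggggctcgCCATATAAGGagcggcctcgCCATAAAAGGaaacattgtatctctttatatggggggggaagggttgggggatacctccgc

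Both Zyx probes lie on the plus strand of rat chromosome 4 in the rn4 build used by the scanner files, and their starts are 622 bases apart. Probe A_64_P143875 (chr4:70127271-70127330) has 55.0% G and C, and probe A_64_P030559 (chr4:70127893-70127952), downstream of it on that strand, has 38.3%. The second holds ATTAAA from base 33, a variant of the hexamer that precedes poly(A) sites, shown in capitals within 30 of its 60 bases. Of all probes on the array, 11.2% hold AATAAA or ATTAAA as written, and of the 13 probes of these genes 3 did, the others being those of Actn4 and Acta2. The files gave no exon or untranslated region for a probe.
Zyx A_64_P143875: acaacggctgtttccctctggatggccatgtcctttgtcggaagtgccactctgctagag
Zyx A_64_P030559: gtaagtatatatATTAAAccctccccccag

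Of the 10 genes, 9 could be tested at each time, among 13630 genes at 3 h and 16448 at 6 h, since a gene entered the tests where each of the 4 arrays of some group read a probe of it well above background. Cnn1, which encodes the smooth muscle protein calponin, was not kept. Its signal was well above background on 1 array of 16 at 3 h, an Ang II array, and on 6 of 16 at 6 h, between 1 and 2 in each group, so no fold is given. That of Acta2 passed this mark on 15 of 16 arrays at 3 h, all but 1 from Ang II, and on all 16 at 6 h. The other 8 genes passed it on every array, and no probe of the 10 genes was saturated. All levels below are log2 signals after normalization within a time, so 3 h and 6 h levels are not compared, and neither are levels of different genes. Across arrays, 55.9% to 64.7% of transcript spots were well above background at 3 h and 64.2% to 79.8% at 6 h. Arrays of a slide differed most in brightness before normalization at replicate 2 of 3 h, where the 75th percentile of log2 signal was 8.54 in Control, 9.52 in Ang II and 8.31 in Ang II+Los, so calls of the 10 genes that were lost without that slide are named below, and calls of the wider list are given as counts.

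**Figure D1:**
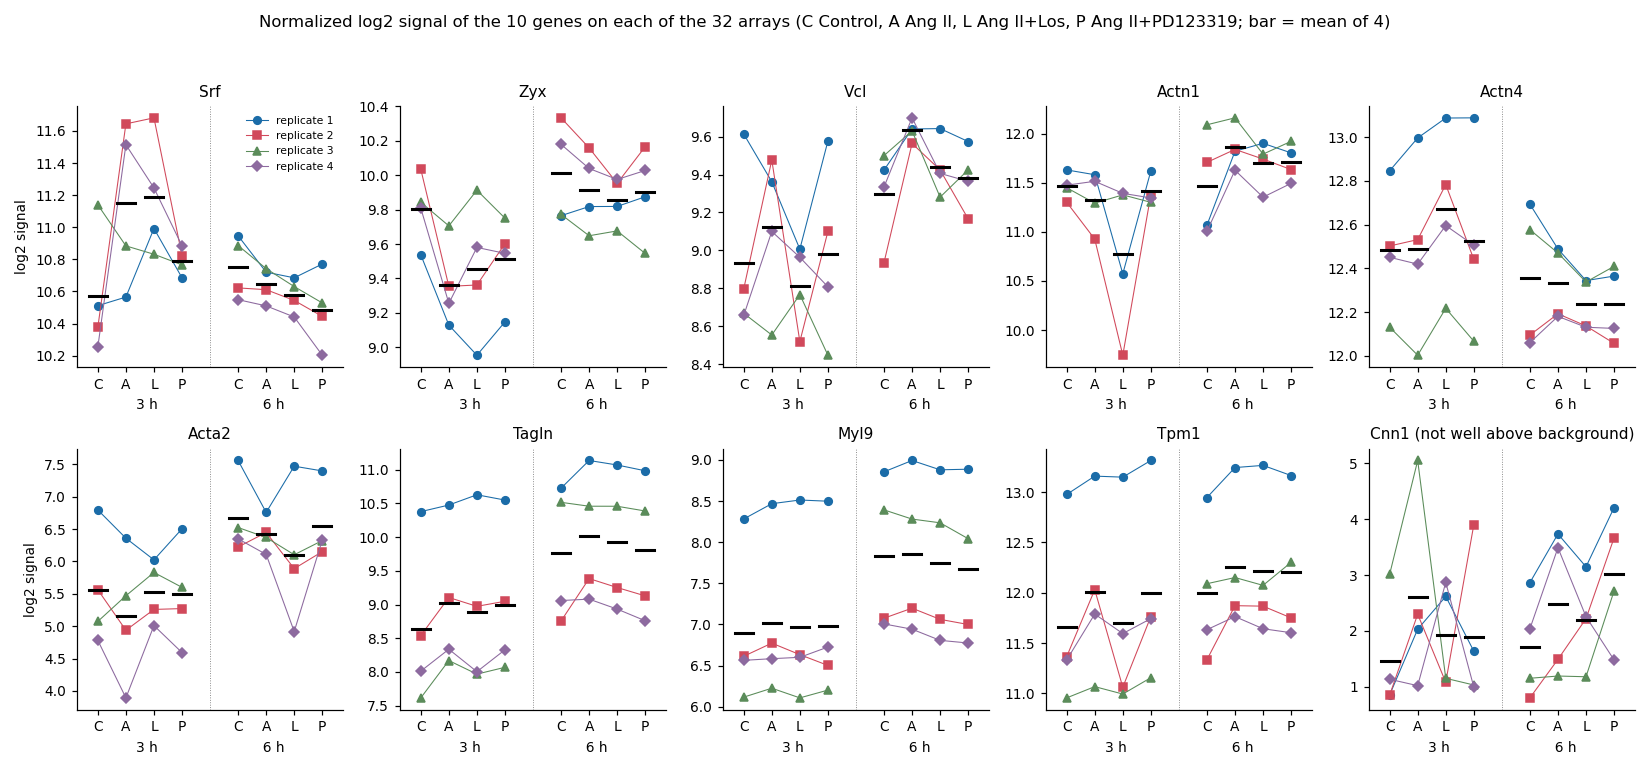
Normalized log2 signal (vertical axis, own scale per panel) of each of the 10 genes on the 32 arrays, with Control (C), Ang II (A), Ang II+Los (L) and Ang II+PD123319 (P) at 3 h and 6 h along the horizontal axis; lines join the 4 arrays of a slide and black bars are means of 4. In Tagln, Myl9 and Tpm1 the line of replicate 1 lies above those of the other slides at 3 h and 6 h, while some lines of the other slides cross. In Srf and Actn1 at 3 h the line of replicate 1 crosses others as well. Replicates 1 of 3 h and of 6 h are different slides.

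The contractile genes differed between slides. Tagln encodes transgelin (SM22), an actin-binding protein long used as an early marker of smooth muscle. Its slide means at 3 h ran from 7.96 on replicate 3 to 10.51 on replicate 1, a 5.86-fold range. At 6 h they ran from 8.96 on replicate 4 to 10.98 on replicate 1, a 4.06-fold range. The spread of Tagln within slides was 0.21 and 0.18 (SD, log2) at the 2 times, a small part of that range.

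Myl9, the regulatory light chain of myosin in smooth muscle and stress fibres, gave slide ranges of 4.85-fold at 3 h and 4.06-fold at 6 h. Tpm1, an alpha-tropomyosin that lies along actin filaments, gave 4.31-fold and 2.82-fold. Acta2, smooth muscle alpha-actin, gave 3.61-fold and 2.58-fold. Its spread within slides, 0.35 and 0.41 (SD, log2), was the largest of the 4 genes. In all 4 genes, and at both times, replicate 1 was the highest slide. Among all tested genes the median range between slides was 0.66 at 3 h and 0.52 at 6 h on the log2 scale. A larger range than that of Tagln was seen in 2.36% of genes at 3 h and in 1.50% at 6 h, and a larger one than that of Acta2, the least of the 4, in 7.20% and 6.97%.

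The spread of the other 5 tested genes was smaller. Srf, Zyx, Vcl, Actn1 and Actn4 ranged between slides by 0.44 to 0.90 at 3 h and by 0.30 to 0.62 at 6 h, and 33.2% or more of all genes had a larger range. Replicate 1 was the highest slide for 31.4% of all genes at 3 h and 27.9% at 6 h. In the wider list of 70 pathway genes described further on, it was the highest for 28 of 51 tested genes (54.9%) at 3 h and for 25 of 57 (43.9%) at 6 h. The median range of these genes between slides was 0.94 and 0.56 on the log2 scale. Of 4 tested smooth muscle and pericyte markers, replicate 1 was the highest slide for 1 at 3 h (Smtn) and for 2 at 6 h (Smtn and Des). Of 3 tested fibroblast markers it was the highest for 0 at both times. Of 5 tested glial lineage markers, replicate 1 was the highest slide for 2 at each time (S100b and Sox2). Vim, a glial and mesenchymal filament gene, was lowest on replicate 1 at 6 h (7.79 against 9.34 to 9.61). At 3 h Vim was lowest on replicate 3. Cd44 was lowest on replicate 1 at both times, and Nes on replicate 4. The part of culture, RNA and hybridization in these slide levels cannot be told apart. Because every slide held all 4 treatments, all comparisons below were made within slides.

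**Figure D2:**
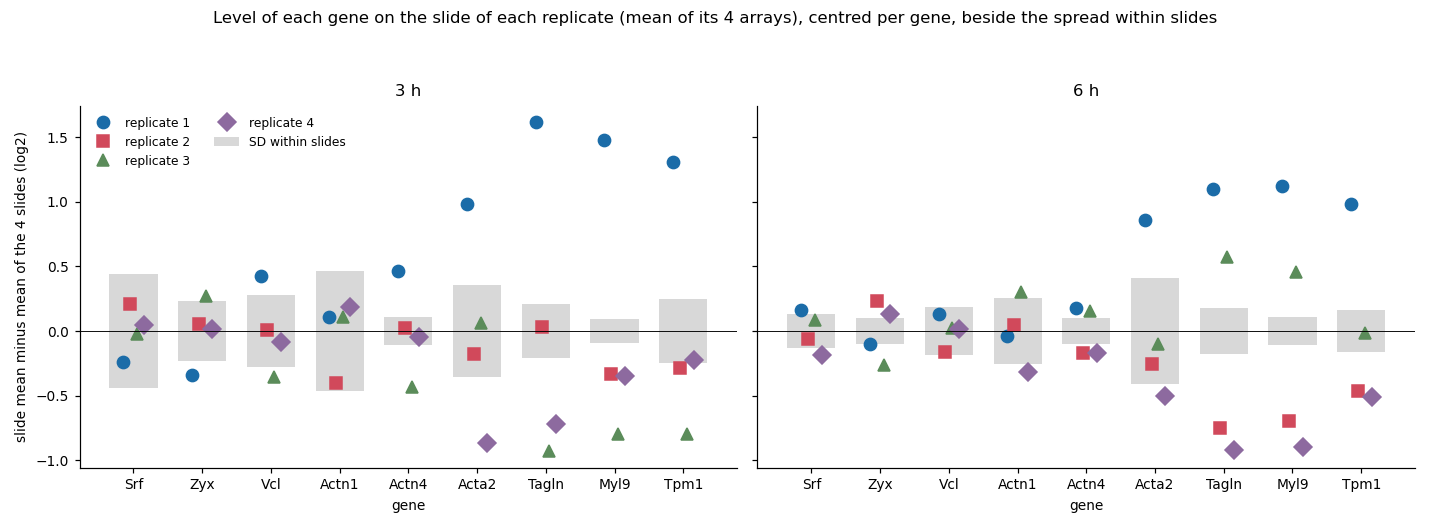
Mean log2 signal of each tested gene over the 4 arrays of a slide, minus the mean of the 4 slides (vertical axis), by gene at 3 h (left) and 6 h (right); symbols are replicates and grey bands reach 1 SD of the spread within slides to either side. Replicate 1 stands above the other slides in Acta2, Tagln, Myl9 and Tpm1 at both times.

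Ang II x Control asked which genes responded to Ang II with both receptors free. A gene was called where limma, with the slide as a block, gave an unadjusted p below 0.05 and the fold was above 1.2 or below 0.8. At 3 h, 4 of the 9 tested genes were called, 3 higher and 1 lower. The genes were chosen with earlier results of these data known, so this is not a count of unselected genes. Over all genes 11% were called, 5.04% higher and 5.99% lower, but 5.53% without replicate 2 and 5.64% without replicate 4. Since the RNA came from whole cultures, fewer cells with a transcript and less of it per cell cannot be told apart. The median log2 fold change of the 9 genes was 0.12, beside 0.00 over all genes, with 6 genes above and 3 below 0. The smallest adjusted p among the 9 was 0.322, and over all genes it was the same.

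Tagln levels in Control at 3 h were 10.38, 8.54, 7.62 and 8.01 in replicates 1 to 4, and those in Ang II were 10.47, 9.10, 8.17 and 8.34. The groups overlapped widely, as the slides differed, but Tagln was higher with Ang II in each of the 4 pairs, by 0.10 to 0.56. The log2 fold change was 0.38 ± 0.11 (SE; limma adjusted p = 0.322). Without the slide as a block the same difference missed the p limit, and it kept its call when any 1 slide was left out.

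Tpm1 levels at 3 h were 12.98, 11.37, 10.96 and 11.33 in Control and 13.16, 12.03, 11.07 and 11.79 in Ang II. It too was higher in 4 of 4 pairs, by 0.11 to 0.67, with a log2 fold change of 0.35 ± 0.14 (limma adjusted p = 0.358). Without replicate 2 the change was 0.25, under the fold limit, and without replicate 4 it missed the p limit (0.32). Its 2 probes, named for different transcript variants and 8329 bases apart in rn4, gave 0.31 ± 0.11 and 0.40 ± 0.19, of which only the first was called.

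Srf levels at 3 h were 10.51, 10.38, 11.14 and 10.26 in Control and 10.57, 11.64, 10.88 and 11.51 in Ang II. The pairs differed by 0.05, 1.27, -0.26 and 1.26, so replicates 2 and 4 carried the mean and replicate 3 went the other way. The log2 fold change was 0.58 ± 0.24 (limma adjusted p = 0.369). Without replicate 2 or without replicate 4 it was 0.35 and missed the p limit.

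Zyx encodes zyxin, a LIM protein of focal adhesions that moves to strained stress fibres and recruits Ena/VASP proteins. Its levels at 3 h were 9.54, 10.03, 9.84 and 9.81 in Control and 9.13, 9.35, 9.71 and 9.26 in Ang II, each the mean of its 2 probes. Zyx was lower in 4 of 4 pairs, by 0.14 to 0.68, and only the Ang II array of replicate 3 reached the Control range. The log2 fold change was -0.44 ± 0.12 (limma adjusted p = 0.322), and it stayed past both limits when any 1 slide was left out. With a normexp background in place of the scanner's it was -0.29, inside the fold limit.

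The slides of 3 h were read in 2 scans, replicates 1 and 2 in the first and replicates 3 and 4 in the second. The mean of the pairs in the first and the second scan was 0.33 and 0.44 for Tagln, 0.42 and 0.28 for Tpm1, 0.66 and 0.50 for Srf, and -0.54 and -0.34 for Zyx. The means of the 4 called changes thus had the same sign in both scans, though the Srf pairs of the second scan were -0.26 and 1.26. The calls rest on these same pairs, so this is not a separate test.

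The other 5 genes were not called at 3 h. Myl9 was higher in 4 of 4 pairs but by a mean of 0.12 ± 0.09. Acta2 was lower in 3 of 4 pairs, with a log2 fold change of -0.39 ± 0.23. Without replicate 3, the pair in which it was higher, the Acta2 change was -0.65 and passed both limits. The largest pair, -0.89, was that of replicate 4, whose Ang II array read 3.89, the lowest Acta2 level at 3 h. Acta2 was well above background on 3 of the 4 Ang II arrays. Vcl and Actn1 gave 0.19 ± 0.19 and -0.14 ± 0.25, and Actn4 gave 0.00 ± 0.09.

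At 6 h, 2 of the 9 tested genes were called in Ang II x Control, both higher, beside 11.5% of all genes (7.44% without replicate 4) and 6.78% called higher. The median log2 fold change of the 9 genes was 0.02, with 5 genes above and 4 below 0. The smallest adjusted p among the 9 was 0.117.

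Vcl encodes vinculin, which links integrin-bound talin to actin. Its levels at 6 h were 9.42, 8.94, 9.50 and 9.33 in Control and 9.64, 9.56, 9.63 and 9.70 in Ang II. The Ang II and Control arrays of Vcl did not overlap at 6 h, but they did at 3 h. How many of all genes had no overlap was not counted. The mean pair was 0.33 over the 3 slides of the first 6 h scan and 0.37 on the single slide of the other. The log2 fold change was 0.34 ± 0.10 (limma adjusted p = 0.117), and the 2 Vcl probes gave 0.36 ± 0.11 and 0.31 ± 0.09. Without replicate 2, whose Control array was the lowest of the 4, the change was 0.24, under the fold limit. By a paired t-test on this gene alone it missed the p limit. In the same test Actn1 at 6 h and Tpm1 and Srf at 3 h missed the limit too, while Tagln and Zyx at 3 h passed.

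Actn1 encodes alpha-actinin 1, which cross-links actin in stress fibres and at adhesions. Its levels at 6 h were 11.07, 11.71, 12.09 and 11.01 in Control and 11.82, 11.84, 12.16 and 11.63 in Ang II. Actn1 was higher in 4 of 4 pairs, by 0.75 and 0.62 in replicates 1 and 4 but only by 0.13 and 0.07 in replicates 2 and 3. The log2 fold change was 0.39 ± 0.15 (limma adjusted p = 0.165), and it missed the p limit without replicate 1 (0.27) or replicate 4 (0.32). Actn4, the other non-muscle alpha-actinin, gave -0.02 ± 0.07.

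Tpm1 and Tagln also passed the p limit at 6 h, higher by 0.26 ± 0.09 and 0.25 ± 0.11, but both changes were 1.19-fold, just under the fold limit. Tpm1 was higher in 4 of 4 pairs and Tagln in 3 of 4, and both passed the limit without replicate 3 (0.32 and 0.35) or replicate 4 (0.30 and 0.33). Myl9 (0.02 ± 0.07), Srf (-0.11 ± 0.07) and Acta2 (-0.24 ± 0.24) were not called. The mean change of Srf was thus 0.58 at 3 h and -0.11 at 6 h, and the difference between the times was -0.69 ± 0.26 (limma interaction, adjusted p = 0.666). Its unadjusted p was below the limit, but not without replicate 2 (-0.49) or replicate 4 (-0.48). For Zyx the difference was 0.35 ± 0.14 (adjusted p = 0.666), and it likewise missed the limit without replicate 1, 2 or 4 (0.30 to 0.33). For the other 7 genes the difference between times missed the limit, and 0 of 13617 genes had an adjusted p below 0.05, while 978 had an unadjusted one.

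**Figure D3:**
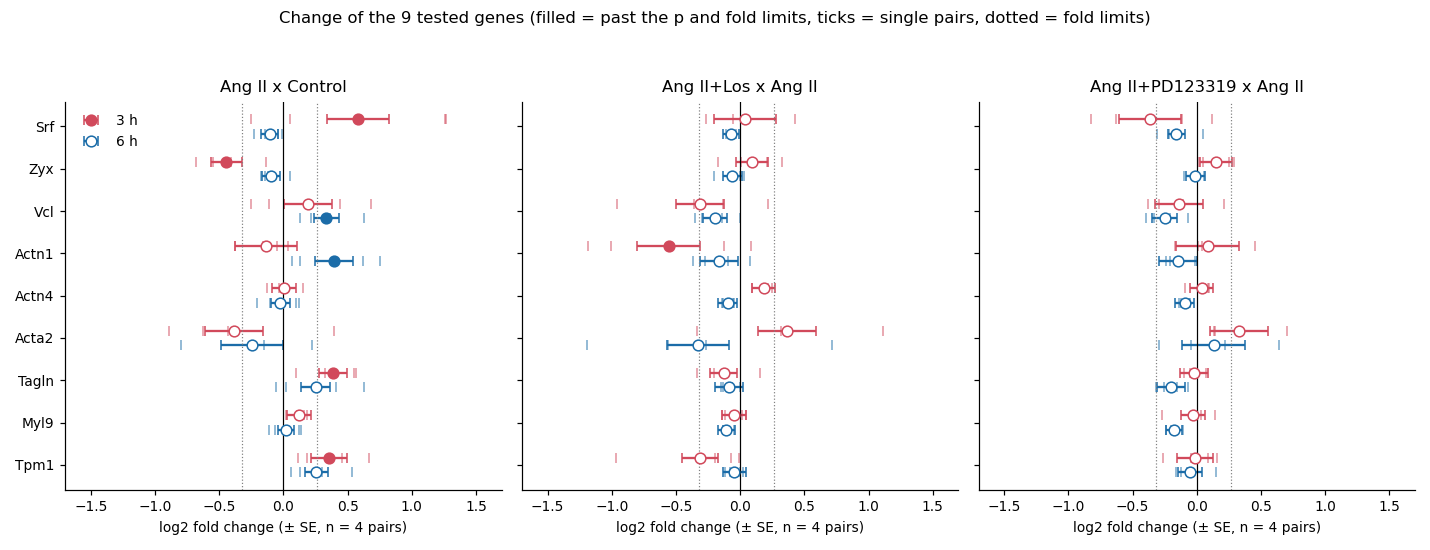
Log2 fold change (horizontal axis, circles ± SE of the limma fit, 4 pairs) of the 9 tested genes (vertical axis) for Ang II against Control and for each antagonist against Ang II, at 3 h in red and 6 h in blue; filled circles passed the p and fold limits, small ticks are single pairs and dotted lines mark the fold limits. Most changes stayed within the limits, and Srf at 3 h shows pairs on both sides of 0.

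The near-zero Zyx value at 6 h was the mean of 2 probes that disagreed. Probe A_64_P030559 read 8.79, 10.04, 8.51 and 10.17 in Control and 8.53, 9.33, 8.31 and 9.44 in Ang II, lower in 4 of 4 pairs. Its log2 fold change was -0.48 ± 0.11 (limma over single probes, adjusted p = 0.0821). Probe A_64_P143875 read 10.73, 10.62, 11.03 and 10.19 in Control and 11.11, 10.98, 10.98 and 10.63 in Ang II, higher in 3 of 4 pairs. Its log2 fold change was 0.28 ± 0.10 (adjusted p = 0.151).

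The difference between the 2 Zyx probes on the same array fell by 0.76 ± 0.47 (SD) with Ang II at 6 h, in 4 of 4 pairs, which was larger than its spread. An exact two-sided permutation test over 4 pairs cannot give a p below 0.125, and the comparison was chosen after the values were seen. At 3 h both probes were lower on average, by -0.60 ± 0.14 for A_64_P030559 and -0.29 ± 0.16 for A_64_P143875. The first was lower in 4 of 4 pairs and the second, which was not called, in 3 of 4. Within slides the 2 Zyx probes had r = 0.32 over the 16 arrays of 3 h and r = -0.58 over those of 6 h. The 2 Vcl probes had r = 0.30 and 0.91, and the 2 Tpm1 probes r = 0.81 and 0.54, as descriptions of arrays that share slides.

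**Figure D4:**
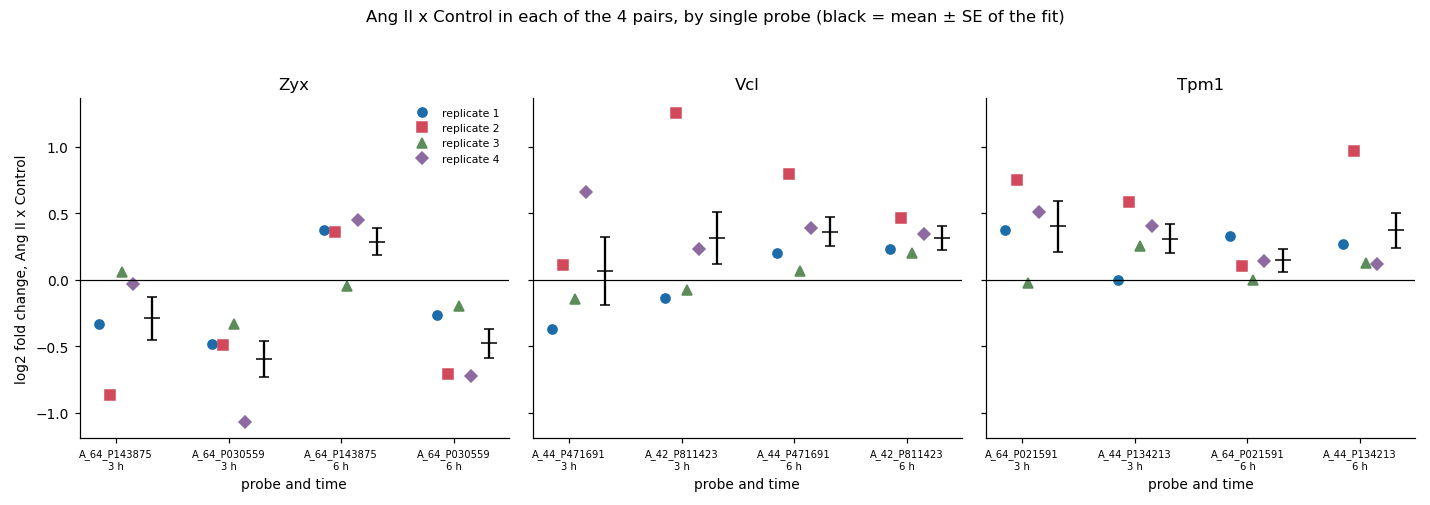
Log2 fold change of Ang II x Control (vertical axis) in each of the 4 pairs for the single probes of Zyx, Vcl and Tpm1 at 3 h and 6 h (horizontal axis); symbols are pairs and black marks are means ± SE of the limma fit. The Zyx probes lie on opposite sides of 0 at 6 h, at 0.28 and -0.48, while both Vcl probes lie above 0.

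Ang II+Los x Ang II asked which genes changed when the AT1 receptor was blocked before Ang II. At 3 h, 1 of the 9 tested genes was called, beside 10.1% of all genes, a share that was 1.62% without replicate 2. Actn1 levels were 11.58, 10.93, 11.29 and 11.51 in Ang II and 10.57, 9.74, 11.38 and 11.39 in Ang II+Los. The arrays of replicates 1 and 2 were lower with Losartan, by 1.01 and 1.18, and those of replicates 3 and 4 were within 0.12 of Ang II. These were also the 2 scans, with mean pairs of -1.10 in the first and -0.02 in the second. On replicate 2 the Ang II+Los array was dimmer than the Ang II array before normalization, as given above. On replicate 1 it was brighter, with a 75th percentile of 9.26 against 8.78. The part of brightness in this result was not tested. The log2 fold change was -0.56 ± 0.25 (limma adjusted p = 0.427), and without replicate 2 (-0.35) or replicate 1 (-0.41) it missed the p limit. Tpm1 passed the p limit with a change of -0.31 ± 0.14, just inside the fold limit, and its pair in replicate 2 was -0.97. Actn4 was higher in 4 of 4 pairs, by 0.18 ± 0.09. Acta2 (0.37 ± 0.23), Vcl (-0.31 ± 0.19), Tagln (-0.13 ± 0.11) and Myl9 (-0.05 ± 0.09) were not called. Without replicate 1 Acta2 (0.60) and Tpm1 (-0.41) passed the limits, and without replicate 3 Vcl did (-0.48). The Acta2 pair of replicate 4, with the lowest Ang II array (3.89), was 1.12.

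With Losartan at 3 h, Zyx levels were 8.96, 9.36, 9.91 and 9.58 and Srf levels 10.99, 11.68, 10.83 and 11.24, and both sets overlapped those of Ang II. Zyx differed from Ang II by 0.09, with a 95% interval from -0.18 to 0.36, and Srf by 0.04, with an interval from -0.49 to 0.56. In Ang II+Los x Control, which shares its Control arrays with Ang II x Control, 3 of 9 genes were called, beside 20% of all genes, a share that was 6.25% without replicate 2 and 11.8% without replicate 1. Srf was higher by 0.62 ± 0.24, in 3 of 4 pairs, and Zyx was lower by -0.35 ± 0.12, in 3 of 4 pairs. Actn1 was lower by -0.69 ± 0.25 in 4 of 4 pairs, again mostly in replicates 1 and 2 (-1.06 and -1.56). In the first and second scan, the mean pairs were 0.89 and 0.34 for Srf, -0.63 and -0.08 for Zyx and -1.31 and -0.08 for Actn1. Without replicate 2 each of the 3 lost its call, at 0.39 for Srf, -0.25 for Zyx and -0.41 for Actn1. The same held without replicate 1, at 0.66, -0.28 and -0.57, and for Srf without replicate 4 (0.49). Tagln passed the p limit at 0.26 ± 0.11 above Control, just under the fold limit. Actn4 (0.19 ± 0.09), Vcl (-0.12 ± 0.19), Myl9 (0.07 ± 0.09), Tpm1 (0.04 ± 0.14) and Acta2 (-0.02 ± 0.23) were not called.

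At 6 h, 0 of the 9 tested genes were called with Losartan against Ang II, and 0 had an unadjusted p below 0.05, beside 0.9% of all genes called (2.57% without replicate 1). All 9 changes were below 0, with a median of -0.10 beside 0.00 over all genes, of which 8301 of 16448 changed below 0. The change of Vcl was -0.20 ± 0.10. Acta2 differed by -0.33 ± 0.24, and by -0.67, past both limits, without replicate 1, the only slide on which it was higher. The other 7 genes, Actn1, Myl9, Actn4, Tagln, Srf, Zyx and Tpm1, differed by -0.17 to -0.05. Against Control, 1 of 9 genes was called with Losartan at 6 h, beside 11.4% of all genes (6.96% without replicate 2). That gene was Acta2, whose levels were 7.56, 6.22, 6.52 and 6.35 in Control and 7.47, 5.89, 6.10 and 4.92 in Ang II+Los. Its log2 fold change of -0.57 ± 0.24 (adjusted p = 0.198) held a pair of -1.43 in replicate 4. It missed the p limit without replicate 4 (-0.28), replicate 2 (-0.65) or replicate 3 (-0.62), and with a normexp background (-0.14). Srf (-0.18 ± 0.07, lower in 4 of 4 pairs) and Tpm1 (0.21 ± 0.09) passed the p limit inside the fold limits, and the changes of Zyx, Vcl, Actn1, Actn4, Tagln and Myl9 ran from -0.16 to 0.23.

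The same was asked of the AT2 receptor in Ang II+PD123319 x Ang II. In the 3 h arrays, 0 of the 9 genes were called and 0 had an unadjusted p below 0.05, beside 2.64% of all genes called. That share was 0.293% without replicate 4 and 5.3% without replicate 1. Srf in Ang II+PD123319 lay at 10.69, 10.82, 10.77 and 10.88, a narrow range, and in replicates 2 and 4 it lay between Control and Ang II. It was 0.36 ± 0.24 below Ang II, which missed the p limit. Acta2 was higher than in Ang II in 4 of 4 pairs, by 0.13 to 0.70 (0.33 ± 0.23). The pair of 0.70 was that of replicate 4, with the lowest Ang II array. The changes of the other 7 genes ran from -0.14 in Vcl to 0.15 in Zyx. The Zyx probe A_64_P030559, taken alone, was higher than in Ang II in 4 of 4 pairs with PD123319 (0.39 ± 0.14) and with Losartan (0.35 ± 0.14), and was called in both. The other Zyx probe gave -0.09 ± 0.16 and -0.17 ± 0.16. Both comparisons share the Ang II arrays.

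Against Control, 2 of 9 genes were called with PD123319 at 3 h, beside 6.1% of all genes. They were Tagln, at 0.36 ± 0.11, and Tpm1, at 0.34 ± 0.14, each higher in 4 of 4 pairs. Tagln levels with PD123319 were 10.55, 9.05, 8.07 and 8.33, and those of Tpm1 were 13.31, 11.76, 11.16 and 11.74. Both groups overlapped Control, as the slides differed. Tpm1 missed the p limit without replicate 1, 3 or 4 (0.31 to 0.38). Zyx was lower in 4 of 4 pairs, by 0.09 to 0.43, and its change of -0.29 ± 0.12 passed the p limit but lay inside the fold limit, past which it moved without replicate 3 (-0.36). Srf was 0.22 ± 0.24 above Control, and the other 5 genes differed by -0.06 to 0.09.

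At 6 h, PD123319 gave 0 calls among the 9 genes against Ang II, beside 3.79% of all genes (2.02% without replicate 4 and 6.32% without replicate 1). Of the 9, 3 had an unadjusted p below 0.05 with small changes, Vcl at -0.25 ± 0.10, Myl9 at -0.18 ± 0.07 and Srf at -0.16 ± 0.07. Over all genes, 1048 of 16448 had an unadjusted p below 0.05. Vcl and Myl9 were lower in 4 of 4 pairs and Srf in 3 of 4. Of the 9 changes, 8 were below 0, with a median of -0.15, and the exception was Acta2 (0.13 ± 0.24). Among all 16448 genes, 8467 changes were below 0. Against Control, 0 of the 9 genes passed both limits, beside 13.5% of all genes (7.96% without replicate 4). Srf was lower than Control in 4 of 4 pairs, by 0.18 to 0.36. Its change of -0.26 ± 0.07 (adjusted p = 0.0605) had the smallest adjusted p of any of the 9 genes in any comparison, and its fold lay inside the fold limit. Tpm1 (0.20 ± 0.09) and Myl9 (-0.16 ± 0.07) passed the p limit inside it too, and the other 6 genes ran from -0.12 to 0.25.

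A wider list of 70 genes of the same pathway (coactivators of Srf, actins, tropomyosins, myosins, regulators of actin tension, focal adhesion partners and other targets of Srf) had 63 genes on the array, of which 51 were tested at 3 h and 57 at 6 h. In Ang II x Control at 3 h, 3 of 51 were called, 2 higher and 1 lower, which was below the 11% of all genes, with a median of 0.06 beside 0.00. The list was refitted without each slide, a step chosen after the data were seen, and the count was then 2 or 3. The 2 that moved the same way in all 4 pairs were Actc1, a cardiac alpha-actin gene, at -0.75 ± 0.20, and Elk4, a ternary complex factor that binds beside Srf, at 0.28 ± 0.11. Actc1 kept its call without any 1 slide, and Elk4 lost it without replicate 3 (0.18) or replicate 4 (0.26).

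At 6 h, 10 of 57 were called in Ang II x Control, 9 higher and 1 lower, beside 11.5% of all genes, 6.78% higher. The median was 0.13, beside -0.0058 over all genes, and 41 of the 57 changes were above 0, as were 8013 of all 16448. The count was 6 without replicate 1, 5 without replicate 2, 11 without replicate 3 and 7 without replicate 4. Of the 10, 9 moved the same way in all 4 pairs. The genes that rose were Rhob (0.59 ± 0.10) and the kinase gene Rock1 (0.48 ± 0.15), and Vasp (0.45 ± 0.10), Enah (0.34 ± 0.08) and Pxn (0.37 ± 0.14) of adhesions, of which Vasp and Enah encode partners of zyxin. Tpm4 (0.27 ± 0.12), Cald1 (0.28 ± 0.12) and Thbs1 (0.29 ± 0.11) also rose, and Synpo fell by 0.84 ± 0.34. Of these 9, the calls of Rhob and Vasp held without any 1 slide, and each of the others was lost without at least 1. Rhob had the smallest adjusted p, 0.0575.

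With Losartan at 3 h, 12 of the 51 were called against Ang II, 1 higher and 11 lower, beside 10.1% of all genes, 5.41% lower. The median was -0.27, beside 0.00 over all genes. Without replicate 2 the count was 1 (Csrp1) and the median -0.12, and without replicate 1 the count was 3. At 6 h 1 of the 57 was called, Synpo (0.79 ± 0.34), beside 0.9% of all genes, and it lost its call without replicate 2 (0.66) or replicate 3 (0.70). The 7 genes lower in all 4 pairs at 3 h were Myh9 (-0.92 ± 0.31), Rhob (-0.75 ± 0.32), Csrp1, Actb, Pdlim1, Tagln2 and Ilk. In all of these but Csrp1 the lowest pair was replicate 2, where Myh9 differed by -2.05 and Rhob by -1.95, against -0.10 and -0.06 in replicate 3. With PD123319, 2 of 51 genes were called against Ang II at 3 h and 3 of 57 at 6 h, beside 2.64% and 3.79% of all genes. Ctgf, a secreted target of Srf and of YAP, was lower in 4 of 4 pairs at both times, by -0.66 ± 0.17 and -0.45 ± 0.13, and kept both calls without any 1 slide. Actc1 was higher at 3 h (0.53 ± 0.20), but was not called without replicate 2 (0.44) or replicate 4 (0.37).

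Against Control, 11 of the 51 wider genes were called with Losartan at 3 h, 3 higher and 8 lower, a share near the 20% of all genes. Without replicate 2 it was 0 of 51 by limma, with 0 at an unadjusted p below 0.05, and without replicate 1 it was 7. With PD123319 5 were called, 1 higher and 4 lower, beside 6.1% of all genes, and without each slide in turn 1 to 4. With Losartan, Egr1 (-1.11) and Ier2 (-0.73), immediate early genes, Myh9 (-0.75) and Pdlim1 (-0.39) were lower in 4 of 4 pairs, while Myh10 (0.60), Tpm3 (0.79) and Rhoc (0.30) were higher. With PD123319, Ctgf (-0.67) and Ier2 (-0.54) were lower and Tagln2 (0.35) was higher. Only Ctgf of these 3 kept its call without any 1 slide. At 6 h, 9 of the 57 were called with each antagonist, 8 higher and 1 lower with Losartan, 5 higher and 4 lower with PD123319, beside 11.4% and 13.5% of all genes. Without each slide in turn the counts were 6 to 10 and 5 to 12. Rhob (0.49 and 0.50), Enah (0.30 and 0.32), Limk2 (0.36 and 0.30) and Vasp (0.38 and 0.30) were higher in 4 of 4 pairs with Losartan and with PD123319, which share the Control arrays. Without replicate 2 Enah and Limk2 lost both calls, and without replicate 1 Vasp did. Ctgf was lower with both (-0.46 and -0.65). Rock1 was higher with Losartan (0.52), and Synpo was lower with PD123319 (-0.75), though not called without replicate 3 (-0.62) or replicate 4 (-0.65). An adjusted p below 0.05 was reached by Rhob with either antagonist (limma, 0.0433 and 0.0416) and by Ctgf with PD123319 (0.0408).

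Of 7 glial lineage markers, 5 were detected, that is, well above background, on every array (S100b, Vim, Nes, Cd44 and Sox2), while Gfap was so on 0 arrays at 3 h and 2 at 6 h, and Slc1a3 on 0 of 32. Of 8 smooth muscle and pericyte markers, Des, Smtn and Pdgfrb were detected on every array and Myh11 on 31, Myocd on 1 at 3 h and 9 at 6 h, Rgs5 on 2, and Lmod1 and Kcnj8 on 0. On every array, 4 of 5 microglia and macrophage markers (Aif1, Itgam, Cx3cr1 and Cd68) and 3 of 5 fibroblast markers were detected too. So were Snap25 and Tubb3 of 3 neuronal markers on the array, Mag of 4 oligodendrocyte markers and Ckm of 5 muscle markers. Of 4 endothelial markers 0 were so at 3 h and 1 at 6 h. In Ang II x Control, 11% of all genes were called at 3 h and 11.5% at 6 h. Beside this, 1 of the 4 tested smooth muscle and pericyte markers was called at 3 h (changes from -0.49 to 0.07) and 0 at 6 h (-0.17 to 0.19). Of 5 tested glial lineage markers, 1 was called at 3 h (-0.06 to 0.59) and 0 at 6 h (-0.03 to 0.19). Of 3 tested fibroblast markers 1 was called at each time, with changes from -0.41 to -0.02 and from -0.39 to 0.06. Of 4 tested microglia and macrophage markers, 1 was called at 3 h (-1.11 to 0.26) and 0 at 6 h (-0.20 to 0.05). Of 2 tested neuronal markers, 0 were called at 3 h (-0.42 to -0.10) and 1 at 6 h (-0.72 to 0.01). No tested endothelial, oligodendrocyte or muscle marker was called. These counts are too small to compare with the share of all genes. The part of these markers in the results was not tested.

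After slide means were taken out, the pattern over 32 arrays most like that of Srf was found in Cand1 (r = 0.92), Dus2l (0.91) and Ppp1r3d (0.89). For Tagln it was found in MGC94282 (0.84), Terf2ip (0.81) and Bid (0.79). For Zyx the 3 were ENSRNOT00000042277 (0.89), Prss36 and the unnamed A_64_P141405 (both 0.86), and for Acta2 LOC689727 (0.88), Pth2 (0.76) and Pctk3 (0.75). Among the 9 genes themselves, Vcl and Tpm1 had the highest correlation (r = 0.72), then Tagln and Tpm1 (0.63) and Vcl and Actn1 (0.62). Zyx and Srf had the lowest, at -0.69. These are descriptions over arrays that share slides and normalization, and the first in each list is the best of 11449 or 11450 genes.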

How the data were processed

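Per the labels, 0.5 µg of RNA per sample was labelled with Cy3 and hybridised, and per the file headers the slides were read with Agilent Feature Extraction 9.5.3.1, which gave the deposited intensity of each spot (the processed signal, after background subtraction by the scanner software). The authors' value tables held log2 of that signal, equal within 1e-06 in 100% of 561803 values compared, with 38.2% blank. The log2 values were used as an alternative only. The files give rn4 coordinates for probes. The precision of array values is limited by how many arrays there are, with a median SE over all genes of 0.16 at 3 h and 0.10 at 6 h (log2).

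Spots marked as outliers were left out, spots of a probe were averaged, and the 16 arrays of each time were normalized by cyclic loess (span 0.7, 3 iterations). The 3 h files held no surrogate for dim spots, so a spot not significantly above background was set to its signal error there, whereas the 6 h files carried the scanner's own surrogate. Probes entered the fit if each of the 4 arrays of any group read them well above background, with at most 2 gaps, and such probes of a gene name were averaged. limma 3.58.1 (R 4.3.3) was fitted with the replicate number as a block over the 16 arrays of a time, and for the difference between times over all 32. A call needed an unadjusted p below 0.05 and a fold above 1.2 or below 0.8, and p-values were Benjamini-Hochberg adjusted over all genes tested. Replicate numbers were the slides per the file names. Deviations of same-numbered arrays from their group means correlated in all 24 pairs at each time (lowest r 0.147 and 0.551).

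Groups came from the labels. The 10 genes, the wider list and the markers were chosen with earlier results of these data known. All 10 genes were named in every comparison, and of the wider list those called with the same direction in 4 of 4 pairs, except 1 gene that is not reported here. Alternatives were other tests, normalizations, backgrounds and filters, single probes, the log2 values, and leaving out each replicate. The fits were tested on simulated data. Promoters were searched in Python 3.11.15 and plots drawn with matplotlib 3.10.9. Cnn1 was too dim for a test.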

Additional observations from a re-analysis of the deposited data

Results flagged for a closer look

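In 2 of the 72 sets of 4 arrays examined (9 genes in 8 groups), 1 array stood apart by Dixon's ratio, the gap to the nearest array over the whole range, above its 95% critical value for 4 arrays. Chance alone gives about 1 such set in 20. Vcl in Control at 3 h read 9.61 in replicate 1 against 8.66 to 8.80 in the others (ratio 0.853), so the Ang II pair of that slide was -0.25. Acta2 in Ang II+PD123319 at 6 h read 7.40 in replicate 1 against 6.15 to 6.33 (ratio 0.856), on the slide that was highest for Acta2 in every group.

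By the unadjusted test, the effect of Ang II differed between the times for Srf, by -0.69 (6 h minus 3 h, limma interaction, adjusted p = 0.666), and for Zyx, by 0.35 (adjusted p = 0.666). Actn4 was above Ang II in all 4 pairs with Losartan at 3 h (mean 0.18) and below it in all 4 at 6 h (mean -0.10), and this difference between times was not tested.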

How the results depend on the processing

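Over all alternatives, the count of the 9 genes called ran from 1 to 5 in Ang II x Control at 3 h (4 as reported) and from 0 to 6 at 6 h (2 as reported), and in each of the other comparisons from 0 to at most 3. Without the replicate block, Tagln (0.38), Tpm1 (0.35) and Zyx (-0.44) at 3 h and Actn1 (0.39) at 6 h missed the p limit in Ang II x Control, and 356 of 13630 genes were called at 3 h in place of 1503 and 528 of 16448 at 6 h in place of 1885. By the methods' t-test the counts were 658 and 731, by an unpaired one 209 and 286, with a normexp background 882 and 756, and without each replicate in turn 754 to 1775 and 1223 to 2512. The median log2 fold change of the 9 genes at 6 h moved by more than the spread between pairs with single probes in place of genes, to 0.20 for Ang II, 0.11 for Losartan and 0.063 for PD123319, each against Control, and to 0.073 in the last with a normexp background. The median difference between the times was -0.029 as reported, 0.091 with quantile normalization, 0.068 with a normexp background and -0.087 to 0.038 without each replicate in turn. Taken alone, Zyx probe A_64_P143875 reversed the 6 h value of the gene, at 0.28. The cause was not tested for any of these. The other medians moved less than the spread between pairs. Signal near background limits Cnn1, which had no test, and Acta2 at 3 h.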
